A study of Bos taurus with 24 samples.

Results

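The muscle-type actins and their contractile partners were followed embryo by embryo in single early bovine blastocysts. The set was given as 10 gene symbols: the muscle-type actins ACTA1, ACTA2, ACTC1 and ACTG2, the cytoplasmic actin ACTG1, and TAGLN, CNN1, MYL9, TPM1 and TPM2. Of these, 9 were found among the 24621 genes of the count table, 7 of them as a single row. MYL9 and TPM1 were each listed as 2 rows, written here MYL9_1, MYL9_2, TPM1_1 and TPM1_2, so that 11 rows were described. The table does not say which copy or locus each row stands for. ACTG2 was not analysed here. ACTA1 and ACTA2 were chosen by their measured levels, which were reported as raised in embryos cultured with serum, so their levels in those embryos are a description and carry no test between culture conditions.

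The study set 8 in vivo derived blastocysts beside 8 from in vitro culture with serum and 8 from culture without it, each blastocyst being 1 replicate. In vivo derived embryos came from superovulated, inseminated Holstein cows and included 5 males and 3 females. For the serum condition (3 males, 5 females) fetal bovine serum was present in both the oocyte maturation medium and the SOF culture medium. For the serum-free condition (5 males, 3 females) it was replaced by EGF in maturation and by BSA with insulin, transferrin and selenium in culture. L-glutamine and Na-pyruvate are listed only for the maturation medium with serum. Sperm of a single bull was used throughout, and only early blastocysts of the best morphological grade were taken. In vivo derived embryos differed from both other groups also in oocyte source, fertilization and recovery from the uterus. They were flushed on the same day after insemination, whereas in vitro blastocysts were harvested on more than a single day. The labels do not say which cow or which in vitro experiment an embryo came from, so these could not be separated from the spread between embryos.

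Actin filaments drive cell shape, and in muscle they slide along myosin. Muscle-type actins are the isoforms that build the contractile apparatus of skeletal, cardiac and smooth muscle, whereas ACTB and ACTG1 are the cytoplasmic isoforms of most cells. Many genes of both kinds are targets of the transcription factor SRF and its actin-sensing cofactors of the MRTF family (MKL1 and MKL2), which are known to respond to serum in cultured cells. In the blastocyst, actin and myosin serve compaction, the epithelium of the trophectoderm and expansion of the cavity.

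Exon counts per embryo lay between 3253051 and 9000447. Values are given as CPM (counts scaled to a common library size after TMM normalization), which allow comparison of a gene between embryos but not of levels between genes. A count of 3, taken as the lowest level that could be read, was worth between 0.346 and 0.936 CPM. A gene was tested where every embryo of at least 1 group had 15 counts, and a call required both a 2-fold change and an adjusted p-value below 0.05. The p-values come from the quasi-likelihood test of edgeR, adjusted by the method of Benjamini and Hochberg for all genes tested, and measure the spread between embryos. Only ACTG1, MYL9_1, MYL9_2 and TPM1_1 reached this limit in the comparisons of all embryos, and the 7 other rows were added to the same fits to obtain their fold changes. No 2 embryos of a condition had the same counts. Markers of the trophectoderm, inner cell mass and hypoblast were present in embryos of every condition, except that SOX17, a marker of the hypoblast, had 3 counts or fewer in every embryo.

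ACTA1, the skeletal muscle actin, was close to the limit of detection outside the serum condition. It had 0, 0.244 and 1.82 CPM as the lowest, median and highest value in in vivo derived embryos, where no embryo had more than 9 counts. In serum-free embryos the same values were 0, 1.60 and 4.18 CPM, and 4 of the 8 lay above every in vivo derived embryo. In serum embryos the values were 1.09, 5.54 and 227 CPM, and 7 of the 8 lay above every in vivo derived embryo. The male embryo B7 alone, with 729 counts, held 87.7% of the summed ACTA1 CPM of the condition. The 7 other serum embryos averaged 4.56 ± 1.87 CPM (SD, n = 7), with between 6 and 32 counts each. The fitted log2 fold change of serum over in vivo was 5.69 (SE 1.23) with B7 and 2.90 without it. ACTA1 thus had low values above the in vivo range in most serum embryos and in part of the serum-free embryos. A very high value was found in a single serum embryo.

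ACTA2, the actin of smooth muscle, did not follow the label of a gene higher in serum embryos. The lowest, median and highest values were 1.21, 7.61 and 29.0 CPM in in vivo derived embryos, 0.192, 6.96 and 109 CPM in serum-free embryos and 0, 3.59 and 145 CPM in serum embryos. The median was therefore lowest in the serum condition. High values were found in B7 (145 CPM) and B1 (68.5 CPM), both male, and these embryos held 93.5% of the summed ACTA2 CPM of the serum condition. The 6 other serum embryos had at most 5.12 CPM, with a mean of 2.47 ± 1.96 CPM (SD, n = 6). The fitted log2 fold change of serum over in vivo was 1.28 (SE 0.98) over all 16 embryos. It was 0.06 without B7, −2.17 without B1 and B7, and −0.01 in DESeq2. ACTA2 was also uneven in serum-free embryos, where C8 (109 CPM, female) and C7 (47.3 CPM, male) exceeded every in vivo derived embryo.

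ACTC1, the cardiac muscle actin, was not among the genes picked, and was high in the same serum embryos. It had 2.82, 5.38 and 23.3 CPM as the lowest, median and highest value in in vivo derived embryos and 0.589, 3.35 and 22.7 CPM in serum-free embryos. In serum embryos B7 reached 226 CPM and B1 40.5 CPM, whereas the 6 others had between 0 and 2.73 CPM and lay below every in vivo derived embryo. Over all 16 embryos the log2 fold change of serum over in vivo was 1.95 (SE 1.21, adjusted p = 0.232), in the edgeR fit that included rows under the count limit. It was −0.44 without B7 and −3.45 without B1 and B7, and no test is given for the latter because these embryos were left out for their levels.

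Counted together, ACTA1, ACTA2 and ACTC1 had between 8.22 and 52.2 CPM in in vivo derived embryos. B7 had 599 CPM and B1 116 CPM, while the 6 other serum embryos had between 4.92 and 8.83 CPM. Among serum-free embryos the sum lay between 3.45 and 113 CPM, and in its highest embryo, C8, nearly all of it was ACTA2. B7 also had the fewest total counts of the 24 embryos (3253051), and its 3 muscle-type actins rested on 1919 counts.

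**Figure D1:**
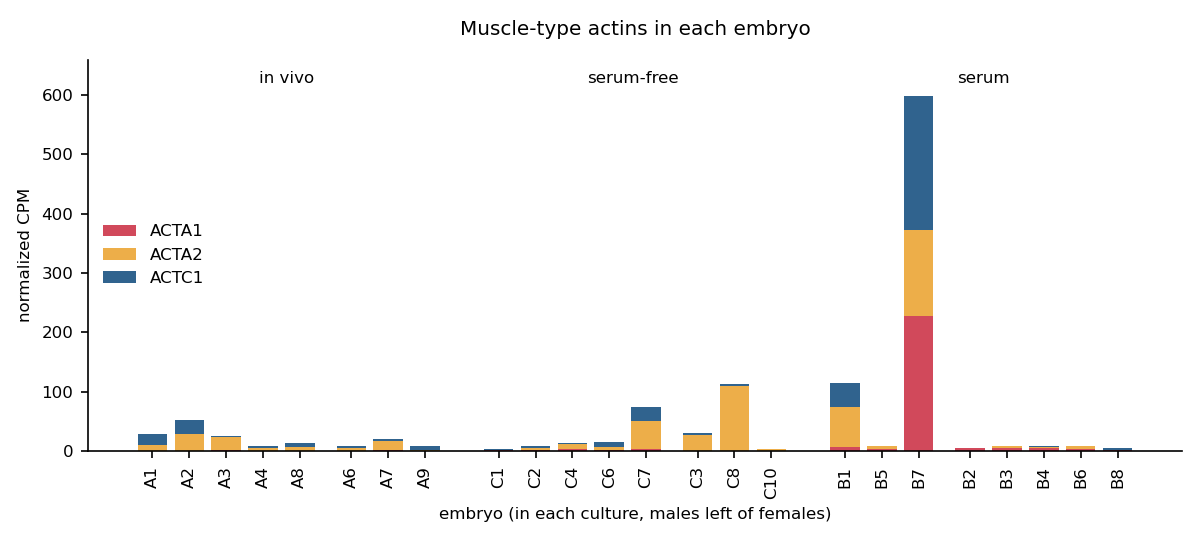
Stacked bars give the normalized CPM of ACTA1 (red), ACTA2 (orange) and ACTC1 (blue) in each of the 24 embryos, with cultures from left to right and males left of females within a culture. B7 reaches 599 CPM and B1 116 CPM, while the other serum embryos stay at or below 8.83 CPM.

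Smooth muscle markers were not detected in B1 and B7. The summed level of 4 smooth muscle markers (MYH11, DES, LMOD1 and MYOCD) was 0 CPM in both embryos. It lay between 0 and 16.9 CPM in serum embryos, between 0.403 and 4.91 CPM in in vivo derived embryos and between 0 and 3.54 CPM in serum-free embryos. The 7 skeletal and cardiac muscle rows summed to between 21.1 and 73.3 CPM in serum embryos, with B7 at the top, against 20.2 to 67.7 CPM in in vivo derived and 26.5 to 89.6 CPM in serum-free embryos. MYOD1 and TNNT2 were at 0 in every serum embryo, and MYOG had 3 counts or fewer. CKM went the other way, at 0 in every in vivo derived embryo but reaching more than 3 counts among serum embryos. MYH7_1 had a median of 6.40 CPM in serum and 1.70 CPM in in vivo derived embryos. For TTN the log2 fold change of serum over in vivo was −0.31 (adjusted p = 0.491 in edgeR). The 9 cumulus and granulosa rows summed to 14.3 CPM in B1 and 12.2 CPM in B7, within the range of 11 to 37.8 CPM of in vivo derived embryos. The 8 fibroblast and stroma rows summed to 11.7 CPM in B1 and 24.3 CPM in B7, against 21.7 to 41.7 CPM in in vivo derived embryos.

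With respect to ACTA2 the serum embryos fell into B1 and B7 on one side and 6 embryos with little ACTA2 on the other. No correlation with ACTA2 over all 8 is therefore given, since the points form separate clusters, and none is read within the 6, which were set apart by their level of ACTA2.

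**Figure D2:**
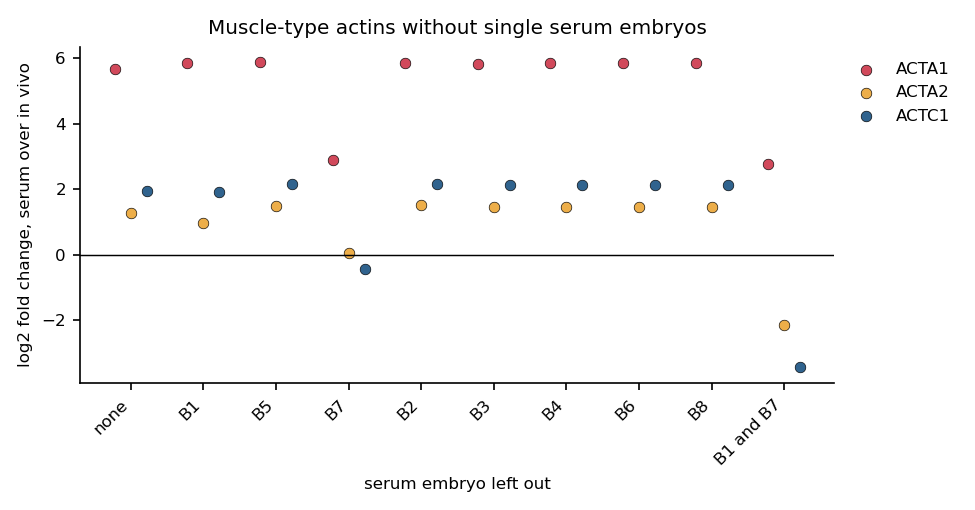
Each point is the log2 fold change of serum over in vivo (vertical axis) for ACTA1, ACTA2 or ACTC1 with the named serum embryo left out (horizontal axis). ACTA1 falls from 5.69 to 2.90 without B7, and ACTA2 and ACTC1 turn to −2.17 and −3.45 without B1 and B7.

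ACTG1, the cytoplasmic gamma actin, was lower in serum embryos. It had between 7296 and 9197 CPM in in vivo derived embryos, with a median of 8471 CPM, and between 2524 and 5698 CPM in serum embryos, with a median of 4626 CPM. Serum-free embryos had between 5842 and 13225 CPM and a median of 6818 CPM. All 8 serum embryos thus lay below every embryo of the other groups. Such a gap was found for 7.09% of the 7339 genes tested between serum and in vivo derived embryos, and for 2.37% of the 7181 tested between serum and serum-free embryos. The log2 fold change was −0.92 (SE 0.17, adjusted p = 0.000754), a 1.89-fold decrease that stayed just under the limit of 2-fold. Against serum-free embryos it was −0.83 (SE 0.21, adjusted p = 0.0151). Between serum-free and in vivo derived embryos it was −0.10 (SE 0.14, adjusted p = 0.736). ACTB, the other cytoplasmic actin, had a row of many counts (ACTB_2) with a log2 fold change of −0.86 (SE 0.16, adjusted p = 0.000909) between serum and in vivo derived embryos. The means of ACTB_2 were 15661 ± 4332 and 28294 ± 3461 CPM (SD, n = 8 each). The other row, ACTB_1, had few counts and was not tested between serum and in vivo derived embryos. Its medians were 24.6 CPM in in vivo derived, 4.50 CPM in serum and 4.93 CPM in serum-free embryos. In vivo derived embryos ranged from 0.913 to 63.3 CPM of ACTB_1.

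MYL9 codes for a regulatory light chain of smooth muscle and non-muscle myosin, and its rows behaved differently. MYL9_1 had 163, 193 and 264 CPM as the lowest, median and highest value in in vivo derived embryos and 65.7, 160 and 239 CPM in serum-free embryos. In serum embryos these were 0, 21.1 and 73.3 CPM. All 8 serum embryos lay below every in vivo derived embryo, and 7 of the 8 lay below every serum-free embryo. B2 had no count and B5 a single one, although B5 was the embryo with the most counts in all. MYL9_1 fell 7.54-fold between in vivo derived and serum embryos (log2 fold change −2.91, SE 0.71, adjusted p = 0.00581) and 6.22-fold between serum-free and serum embryos (−2.64, SE 0.74, adjusted p = 0.0234). It kept its call in each of the 16 fits that left out 1 embryo in the former comparison, and in each of the 16 in the latter. In all of these fits MYL9_1 passed the count limit only through the group compared with serum. They share that selection and cannot test it. Serum-free and in vivo derived embryos were not distinguished (−0.28, SE 0.20, adjusted p = 0.448).

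MYL9_2 ranged from 1142 to 1598 CPM in serum embryos and from 1324 to 1739 CPM in in vivo derived embryos, with a log2 fold change of −0.19 (SE 0.11, adjusted p = 0.184). The share of MYL9_1 in the counts of both rows therefore changed within the same libraries. It was 11.5 ± 1.66% in in vivo derived, 8.77 ± 2.94% in serum-free and 1.83 ± 1.95% in serum embryos (SD, n = 8 each). The share was lower in serum than in in vivo derived embryos (p = 0.000155, two-sided exact permutation test, the smallest p it could give, 0.000466 after adjustment over 3 tests). It was also lower in serum than in serum-free embryos (exact permutation p = 0.000311, adjusted 0.000466) and in serum-free than in in vivo derived embryos (exact permutation p = 0.0385, adjusted 0.0385). With both rows summed, MYL9 was only 1.26-fold lower in serum than in in vivo derived embryos (adjusted p = 0.0234) and was no longer called.

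**Figure D3:**
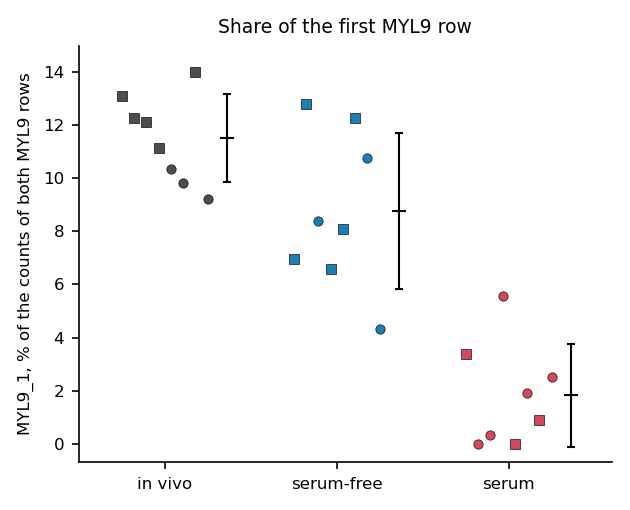
Each point is 1 embryo (squares male, circles female) and gives MYL9_1 as a percentage of the counts of both MYL9 rows, with bars for mean and SD. In vivo derived embryos lie between 9.23% and 14.0%, serum-free embryos between 4.32% and 12.8% and serum embryos between 0% and 5.55%.

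Tropomyosins wind along actin filaments and govern the access of myosin. TPM1_1 had between 20.1 and 36.4 CPM in in vivo derived embryos, with a median of 28.5 CPM. Serum embryos had between 0.734 and 16.5 CPM and a median of 12.5 CPM, again all below every in vivo derived embryo. Serum-free embryos had between 15.2 and 42.2 CPM and a median of 24.5 CPM. TPM1_1 fell 2.77-fold between in vivo derived and serum embryos (log2 fold change −1.47, SE 0.40, adjusted p = 0.0110). Against serum-free embryos the log2 fold change was −1.30 (SE 0.42, adjusted p = 0.0420), but the call held in only 5 of 16 fits that left out 1 embryo, with an adjusted p-value of up to 0.0862 (without C6). With all embryos TPM1_1 passed the count limit only through the group compared with serum, as B2 had 3 counts.

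TPM1_2 was scarce and uneven. Its lowest, median and highest values were 0, 0.0888 and 14.1 CPM in in vivo derived embryos, 0, 1.20 and 16.6 CPM in serum embryos and 0.566, 15 and 103 CPM in serum-free embryos. The high values came from A9 among in vivo derived embryos, B2 among serum embryos and C1 among serum-free embryos. The log2 fold change of serum-free over in vivo was 3.73 (SE 1.04, adjusted p = 0.0383) in the fit that kept rows under the count limit. This passed in 6 of 16 fits without 1 embryo, and the adjusted p-value was 0.0574 in DESeq2 and 0.0923 without C1. Between serum and in vivo derived embryos the log2 fold change of TPM1_2 was 0.90 (adjusted p = 0.560), and 4.04 (adjusted p = 0.0161) without A9. In male embryos alone TPM1_2 was called in the same kind of edgeR fit (4.48, adjusted p = 0.0247), but not in DESeq2 (adjusted p = 0.0881) or without B5 (2.06, adjusted p = 0.337). TPM2 reached 41.3 CPM in the serum embryo B3, whereas B1 and B5 had no count. In vivo derived embryos had between 0.457 and 6.64 CPM of TPM2 and serum-free embryos between 1.53 and 11 CPM. For TPM2 the log2 fold change of serum over in vivo was 1.60 (SE 0.84, adjusted p = 0.159).

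TAGLN (transgelin) and CNN1 (calponin), which bind actin in differentiated smooth muscle, were practically not detected. TAGLN had 1 count in all in vivo derived embryos together, 2 in serum embryos and 9 in serum-free embryos, each time in a single embryo. CNN1 had 1 count in in vivo derived embryos, 5 in serum embryos and 0 in serum-free embryos. In B7, where ACTA2 was highest, TAGLN was at 0 and CNN1 had 1 count.

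**Figure D4:**
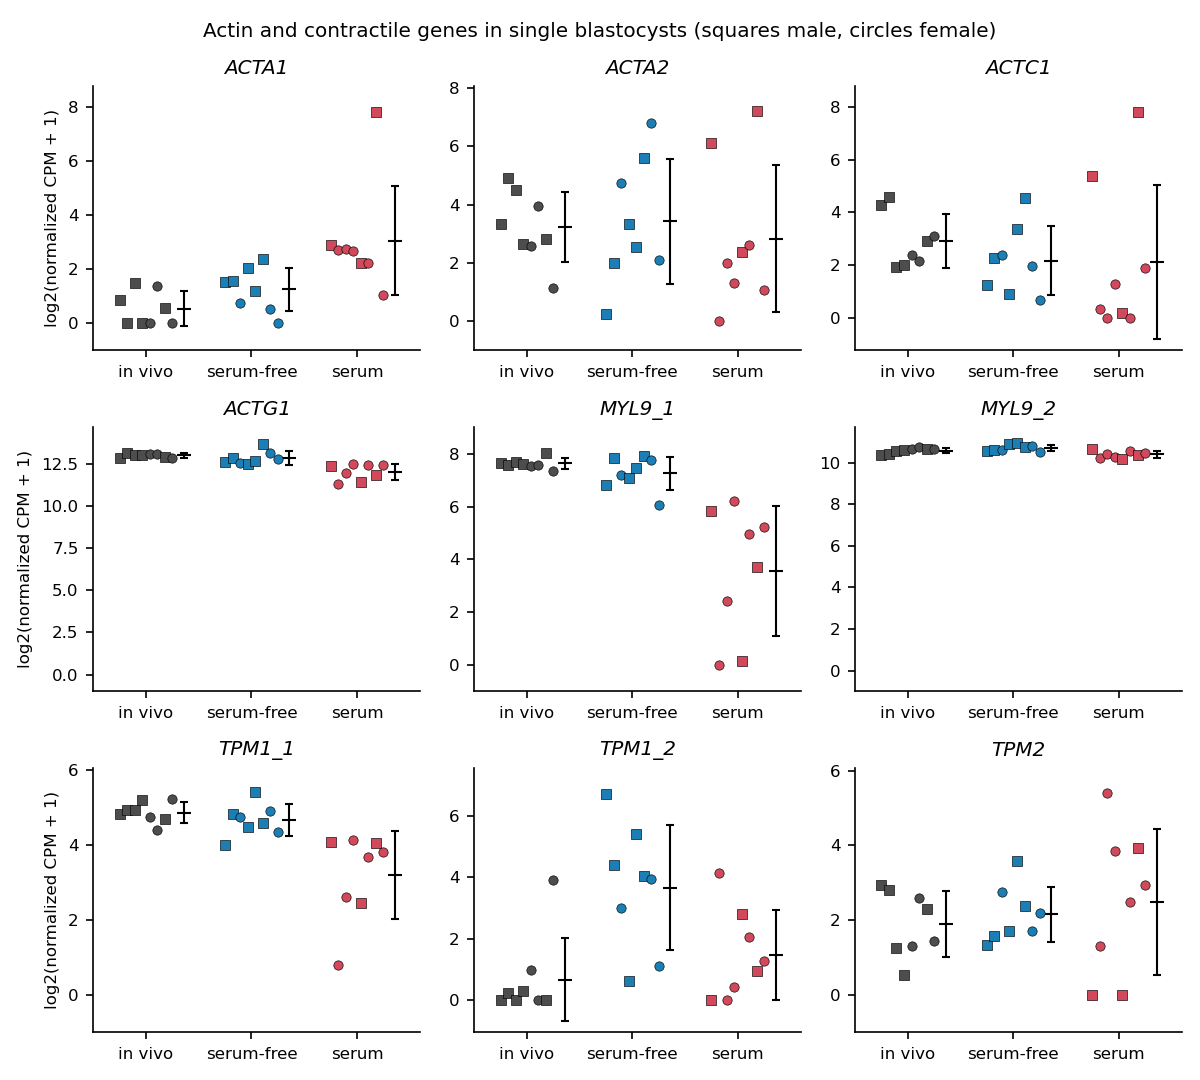
Each panel gives log2(normalized CPM + 1) of 1 row in the 24 embryos (squares male, circles female), with mean and SD beside each culture. TAGLN and CNN1 are not drawn, since no embryo had more than 9 counts. ACTA1 has a single very high serum embryo (B7), and ACTA2 and ACTC1 are high in B1 and B7, while ACTG1, MYL9_1 and TPM1_1 are lower in the serum group.

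Over all embryos, 2 of the 4 member rows tested were called between serum and in vivo derived embryos, MYL9_1 and TPM1_1, both lower in serum. Of the 7339 genes tested 13.8% were called, 7.34% as lower. Both rows passed the count limit only through the in vivo derived group, since serum embryos with 3 counts or fewer were among those compared. Neither was tested, and 0 members were called, where 15 counts were asked of every embryo. Between serum and serum-free embryos the same 2 of 4 rows were called, both lower in serum. This compares with 8.91% of genes called and 5.36% called as lower. Here they passed the count limit only through the serum-free group, with serum embryos down to 0 counts of MYL9_1 and 3 of TPM1_1. Where a single count in any embryo sufficed for testing, 1 member (MYL9_1) was called here, against 2.97% of genes. Between serum-free and in vivo derived embryos 0 of the 4 rows were called by edgeR, DESeq2 or edgeR's exact test, and 0 had an unadjusted p-value under 0.05, against 2.2% of genes called. These comparisons share embryos and are not independent of each other.

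**Figure D5:**
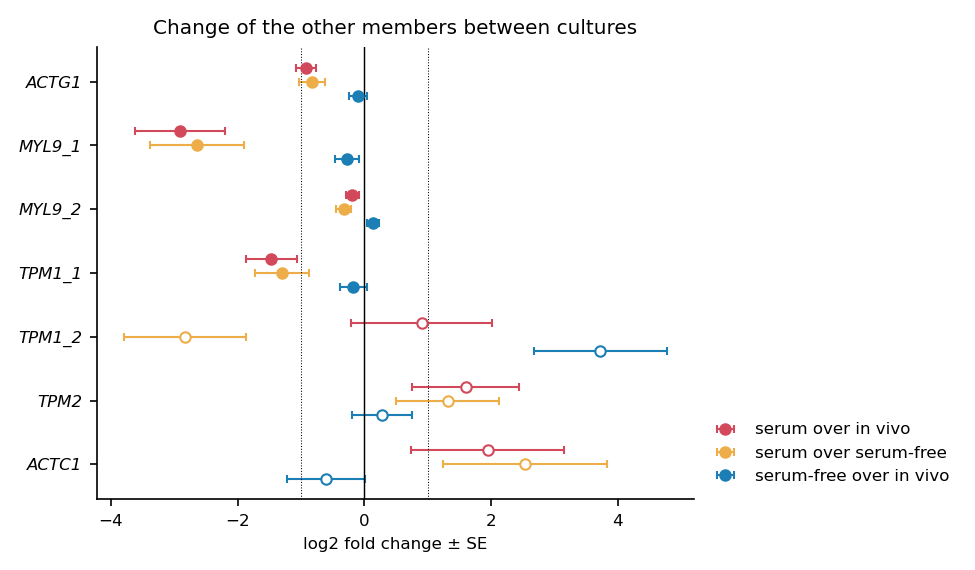
Points give the log2 fold change with its SE for the members other than ACTA1 and ACTA2 in 3 comparisons of cultures. Filled points passed the count limit, open points did not, and dotted lines mark a 2-fold change. MYL9_1 and TPM1_1 lie beyond the 2-fold line in both comparisons with serum embryos, and ACTG1 lies just inside it.

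Among other actin cytoskeleton genes known as MRTF and SRF targets, more were lower than higher in serum embryos. Of 27 genes tested without the members, 8 were lower in serum than in in vivo derived embryos and 1 was higher, where 7.34% of all genes tested were called as lower and 13.8% in either direction. Their median log2 fold change was −0.86, compared with 0.01 over all genes tested. The largest decreases were those of CNN2 (calponin 2, log2 fold change −2.48, SE 0.61, adjusted p = 0.00617), TAGLN2 (transgelin 2, −1.74, SE 0.31, adjusted p = 0.000771) and FLNA (filamin A, which crosslinks actin, −1.58, SE 0.56, adjusted p = 0.0434). CTGF, a secreted matricellular protein, was the gene that rose (1.12, SE 0.35, adjusted p = 0.0242). Against serum-free embryos 7 of the 27 genes were lower in serum and 0 were higher by edgeR, where 5.36% of all genes were called as lower and 8.91% in either direction. Between serum-free and in vivo derived embryos 0 of 27 were called by any of the 3 tests, with 7 at an unadjusted p-value under 0.05.

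SRF itself was low, with a median of 4.39 CPM in in vivo derived embryos and 3.98 CPM in serum embryos, where it ranged from 0.924 to 10.6 CPM. MKL1 had at most 9 counts and MYOCD, the cofactor of cardiac and smooth muscle, at most 2 counts in any serum embryo. MKL2 was the only SRF cofactor tested, with a log2 fold change of −0.45 (SE 0.34, adjusted p = 0.336) between serum and in vivo derived embryos. Of 2 smooth muscle genes tested between serum and in vivo derived embryos (CALD1 and MYLK) 0 were called by edgeR, DESeq2 or the exact test, both having an unadjusted p-value under 0.05. Against serum-free embryos both were called as lower in serum by all 3 tests, CALD1 (caldesmon) with a log2 fold change of −1.15 (SE 0.29, adjusted p = 0.0139 in edgeR) and MYLK (myosin light chain kinase) with −1.80 (SE 0.56, adjusted p = 0.0358). Of 4 striated muscle genes tested, 1 was called as higher and 1 as lower by edgeR, where 13.8% of all genes tested were called. MYH7_1 (a myosin heavy chain) rose with a log2 fold change of 2.22 (SE 0.58, adjusted p = 0.00839). It passed the count limit only through the serum group, with at least 16 counts there and 0 to 19 in in vivo derived embryos. The other row of this gene, MYH7_2, was not tested in this comparison. TNNI3 (cardiac troponin I) fell, with a log2 fold change of −1.15 (SE 0.40, adjusted p = 0.0397).

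Some markers of the trophectoderm, the hypoblast and the endothelium were lower in serum embryos, as the lower members were. KRT8 had between 5968 and 11754 CPM in in vivo derived embryos, between 3841 and 23427 CPM in serum-free embryos and between 40.1 and 4048 CPM in serum embryos. The 7 trophectoderm markers summed to between 7604 and 14888 CPM in in vivo derived embryos, 5049 and 28785 CPM in serum-free embryos and 333 and 5207 CPM in serum embryos, a sum made up mostly of KRT8. Between serum and in vivo derived embryos 4 of 6 trophectoderm markers tested were called as lower, against 7.34% of all genes. These were KRT8, KRT18, GATA2 and GATA3. TEAD4 (log2 fold change 0.71, adjusted p = 0.105) and TFAP2C (0.32, adjusted p = 0.292) were not called, and CDX2 was not tested. The 4 hypoblast markers summed to between 27.9 and 234 CPM in serum and between 346 and 596 CPM in in vivo derived embryos, with PDGFRA called (−2.04, adjusted p = 0.00101) and GATA6 not (0.16, adjusted p = 0.709). Serum-free embryos also had a low hypoblast sum, between 130 and 400 CPM. There PDGFRA was called against in vivo derived embryos by edgeR (−1.01, adjusted p = 0.00952) but not by DESeq2. The hypoblast markers thus differed from the tested member rows, none of which was called in that comparison. The 3 endothelial markers summed to between 0.115 and 57.0 CPM in serum and between 66.4 and 140 CPM in in vivo derived embryos, with PECAM1 called (−2.36, adjusted p = 0.0191). CDH5, another of these markers, had 3 counts or fewer in every embryo and 0 in serum embryos. Endothelial cells are therefore not read from this sum. B2, the serum embryo with the least KRT8, also had the least ACTG1 (2524 CPM), MYL9_1 (0 CPM) and TPM1_1 (0.734 CPM). B7 had the second lowest KRT8 (71.4 CPM) but 15.6 CPM of TPM1_1. The inner cell mass markers summed to between 175 and 319 CPM in serum embryos and between 210 and 274 CPM in in vivo derived embryos. The part of any of these cell types in the decreases of the members was not tested. In whole embryos fewer cells of a type and less RNA per cell cannot be told apart.

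With male embryos only, 2 of the 4 rows other than ACTA1 and ACTA2 were called between serum and in vivo, against 13.3% of the 7762 genes tested, or 8.03% counted as lower. ACTG1 fell 2.09-fold (log2 fold change −1.06, SE 0.21, adjusted p = 0.00551) and MYL9_1 fell 9.47-fold (−3.24, SE 0.94, adjusted p = 0.0321). MYL9_1 passed the count limit only through the in vivo derived males, as B5 had 1 count. DESeq2 gave no adjusted p-value for it and called ACTG1 and TPM1_1, while the exact test called all 3. For TPM1_1 the log2 fold change in males was −1.31 (adjusted p = 0.0567 in edgeR's quasi-likelihood test, 0.0166 in DESeq2 and 0.0287 in the exact test). The call of MYL9_1 held in 2 of 8 fits without 1 embryo, with an adjusted p-value of up to 0.117 (without B7), and that of ACTG1 was lost without B5 because its decrease was then under 2-fold. With female embryos 0 of 5 rows were called by edgeR, DESeq2 or the exact test, 3 had an unadjusted p-value under 0.05, and 0.418% of 8138 genes were called. In females the log2 fold changes were −0.83 (SE 0.26, adjusted p = 0.137) for ACTG1 and −2.61 (SE 1.03, adjusted p = 0.195) for MYL9_1. A difference between the sexes in the response of these genes was not detected, with an interaction of −0.20 (SE 0.35, adjusted p = 0.998) for ACTG1 and −0.59 (SE 1.49, adjusted p = 0.998) for MYL9_1.

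The high values of the muscle-type actins in serum embryos belonged to males, B1 and B7. ACTA2 had 4.16, 68.5 and 145 CPM in the 3 males and between 0 and 5.12 CPM in the 5 females, so that B5 overlapped with the females. The log2 fold change of male over female was 5.04. ACTA1 had 3.70, 6.56 and 227 CPM in males and between 1.09 and 5.80 CPM in females. For ACTA1 the log2 fold change was 4.17, and 0.23 without B7. Both genes had been chosen by their levels in these same embryos and passed the count limit only through the males, so their differences are a description with no test. ACTC1 had 0.115, 40.5 and 226 CPM in males and between 0 and 2.73 CPM in females. ACTC1, in the edgeR fit that kept rows under the count limit, had a log2 fold change of 6.53 (SE 1.58, adjusted p = 0.243). Its adjusted p-value was 0.0419 in the exact test of edgeR and 0.0138 in 1 edgeR fit over all 24 embryos. ACTC1 was called in 0 of the 8 edgeR fits that left out 1 embryo, with adjusted p-values between 0.102 and 0.974. The difference rested on B1 and B7. Of the 3 other rows tested (ACTG1, MYL9_2 and TPM1_1) 0 were called by edgeR, DESeq2 or the exact test and 0 had an unadjusted p-value under 0.05, where 0.173% of 7534 genes were called. With a single count in any embryo as the limit 0.0718% of genes were called, and nothing is read from ACTA2 being among them. In serum-free embryos ACTA2 ranged from 0.192 to 47.3 CPM in males and from 3.24 to 109 CPM in females, and the sexes overlapped. ACTA1 had between 1.28 and 4.18 CPM in serum-free males and between 0 and 0.701 CPM in serum-free females, at no more than 16 counts. Its log2 fold change of male over female was 2.49 there (SE 0.80, adjusted p = 0.410), in the edgeR fit that kept rows under the count limit.

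The interaction of sex and serum for ACTC1 was 5.45 (SE 1.76, unadjusted p = 0.00652, adjusted p = 0.734) in edgeR's test. Apart from ACTA1 and ACTA2, which are not tested here, 0 of 5 member rows were called for the interaction in edgeR or DESeq2, and 1 (ACTC1) had an unadjusted p-value under 0.05. In edgeR 0% of the 8446 genes tested were called. Between males and females 0 of 6 member rows were called in in vivo derived embryos (0.653% of genes) and 0 of 4 in serum-free embryos (0.139% of genes). None of these rows had an unadjusted p-value under 0.05 (0 rows), and neither DESeq2 nor the exact test called any. With the limit of a single count in any embryo, TPM1_2 was called as lower in in vivo derived males, 1 member against 0.504% of genes.

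Over all 24 embryos and 7557 genes, the genes whose pattern was most like that of ACTA1 were SELK, PTTG1, NFKBIB, CNIH4 and PSMB2, with Spearman's correlation between 0.815 and 0.850 (n = 24). Within the 8 serum embryos alone their correlation with ACTA1 was between 0.214 and 0.595. Their medians were higher in serum than in in vivo derived embryos, for example 247 against 108 CPM for SELK. Nothing is read from this, since ACTA1 was picked for its rise in serum embryos. B7 lay above the serum median for all 5, from 330 against 317 CPM for PTTG1 to 423 against 247 CPM for SELK and 128 against 80.4 CPM for CNIH4. For ACTA2 they were FDXR, RPL15_2, EEF1G, PHKB and SEC11C, with a correlation between 0.667 and 0.787 (n = 24). FDXR varied little between conditions, with medians of 20.0 CPM in in vivo derived, 19.0 CPM in serum and 19.1 CPM in serum-free embryos.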

How the data were processed

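RNA of single blastocysts was amplified with a SMARTer kit and sequenced. Reads were quality-trimmed and mapped to UMD3.1 in the CLC Genomics Workbench by the authors, who deposited raw counts of fragments mapped uniquely to exons, so that reads shared by similar actin genes or gene copies were left out. All 24 columns were matched to an embryo by name. Counts were TMM-normalized and tested with edgeR 4.0.16 in R 4.3.3 in fits holding only the groups compared. SE were derived from the estimate and its F statistic. DESeq2 1.42.0 and SciPy 1.17.1 were also used. The quasi-likelihood test of edgeR was tried on simulated data for part of the comparisons. The members and gene lists were chosen with earlier results of these data known. All members were named, together with the 5 genes most like ACTA1 and ACTA2 and the genes of the lists with the largest called changes. Alternatives were the exact test, DESeq2, other size factors, other count limits, 1 fit over all embryos, sex as covariate, a replicate block and leaving out embryos. Leaving out B1 and B7 together, keeping rows under the limit and summing copies were chosen after seeing the data. Depth was 3253051 to 9000447 counts per embryo, and limits on low counts cover counting error only. Gene coordinates and sequences were not used here, since no reference of this build was at hand.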

Additional observations from a re-analysis of the deposited data

Results flagged for a closer look

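In 6 of 32 groups of 8 embryos, 1 embryo stood apart from the rest on the scale of log2(CPM + 1). Chance alone sets apart about 5% of groups, but this count is not read against it, since 4 of the 6 are fixed by single detections and ACTA1 was chosen by its level in serum embryos. ACTA1 was high in the serum embryo B7 (227 CPM), whose gap to the next embryo was 0.726 of the range of its condition. TPM1_2 was high in the in vivo derived embryo A9 (14.1 CPM, 0.748 of the range). The remaining 4 are single detections of genes otherwise at 0, with a gap of 1 times the range: TAGLN in A4 (1 count), B6 (2 counts) and C6 (9 counts), and CNN1 in A2 (1 count).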

How the results depend on the processing

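Between serum and in vivo derived embryos the 2 members called became 0 where at least 15 counts were asked of every embryo, since neither row was then tested, and 1 with copies summed. Between serum and serum-free embryos the 2 called became 1 with at least 1 count in any embryo, 1 with sex as covariate, 0 with 15 counts in every embryo and 1 with copies summed. Male over female serum embryos gave 0, but 1 in DESeq2, 1 with at least 1 count in any embryo, 2 in 1 fit over 24 embryos and 2 in the exact test. These calls are of ACTA1 and ACTA2, chosen by their levels in these embryos, and nothing is read from them. Male over female in vivo derived embryos gave 0, but 1 (TPM1_2) with at least 1 count in any embryo. Leaving out 1 embryo gave 1 to 2 members between serum and serum-free embryos, 1 to 3 in males and 0 to 1 in females (1, MYL9_1, without B2). The cause of these shifts was not tested, apart from the stricter count limit. With a replicate block the members called were 1 between serum and in vivo derived embryos and 0 between serum and serum-free embryos, although same-numbered embryos shared only a number (their deviations correlated between −0.127 and 0.0881). ACTC1 between serum and in vivo derived embryos turned to −3.45 on the log2 scale without B1 and B7. TPM2 in males was 0.95 without B5 and turned to −7.21 without B7, a value that depends on the prior count because both other male serum embryos had no count. Of 1783 alternatives of a log2 fold change, 64 changed sign, 62 of them where neither value passed the test. Size factors of DESeq2 moved the median of all genes by less than 0.1. Low counts limit ACTA1, TAGLN and CNN1.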
